A study of Mus musculus with 22 samples.

Results

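Axon guidance ligands and receptors were followed as one gene set in mouse cortical neural stem cells (NSCs) with altered Musashi, an RNA-binding protein family. Members were the genes whose symbol in the ribosome profiling (Ribo-Seq) tables named an ephrin, Eph receptor, class 3 to 7 semaphorin, plexin, neuropilin, Slit, Robo, netrin, Unc5 receptor or Dcc. The rule took 72 entries with 71 distinct symbols of 23081 genes, and 70 of them also had a row among the 22623 genes of the RNA-Seq files. Robo2 and a second entry for Efna5 had footprints only, and their mRNA was not analysed here. The set held 14 Eph receptors, 9 ephrin entries, 20 semaphorins, 9 plexins, 2 neuropilins, 3 Slits, 4 Robos, 4 netrins and 5 netrin receptors. Unc50, a Golgi-associated protein, and Unc5cl matched the pattern of the symbol only, are not netrin receptors, and are counted apart from the families.

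All cells were NSCs from 129SvJae embryos grown on laminin with EGF and bFGF. KH2 cells carried the Dox-responsive activator R26-m2rTTA and no Musashi transgene, while tetO-Msi1 and tetO-Msi2 cells carried the same activator and an inducible Msi1 or Msi2 cDNA at Col1a1. These 3 lines, here called tet lines, were untreated or given 1 µg/ml doxycycline (Dox) for 72 h at E12.5, and E13.5 libraries came from KH2 cells without Dox and from tetO-Msi1 cells in both states. C1 and C4 were E12.5 lines floxed at both Msi1 and Msi2, C4 with CreER and C1 without Cre, each untreated or given 4-hydroxytamoxifen (4-OHT) for 48 h. After the counts of 1 technical replicate pair were summed there were 13 RNA-Seq and 8 Ribo-Seq libraries, 1 per condition, so repeats across lines or stages stand in for replicates and every single pair has counting error only.

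Guidance cues are secreted or membrane-bound proteins that attract or repel growing axons and migrating cells. Ephrins signal through Eph receptors, Slits through Robos, netrins through Dcc and Unc5 receptors, and semaphorins through plexins, for the secreted class 3 members usually with a neuropilin as co-receptor. In the embryonic cortex the same proteins also act on progenitors and on newborn neurons that leave the ventricular zone.

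The libraries held 7889966 to 60791605 counted RNA-Seq reads and 657288 to 6381242 footprint reads, with the fewest of both in tetO-Msi1 cells with Dox at E12.5. The members took 0.319% to 0.470% of the RNA-Seq reads and 0.0508% to 0.205% of the footprints. The highest footprint share, in untreated tetO-Msi1 cells, includes Sema4f footprints that were nearly absent from the other libraries. Msi1 mRNA went from 128.9 to 701 RPKM with Dox in tetO-Msi1 cells at E12.5 and from 182 to 699 RPKM at E13.5, and Msi2 mRNA from 153 to 824 RPKM in tetO-Msi2 cells. In the tetO-Msi1 pairs Msi2 mRNA was also lower with Dox, from 206 to 129 RPKM at E12.5 and from 198 to 85.4 RPKM at E13.5. KH2 cells had 191 RPKM of Msi2 without and 208 RPKM with Dox. With 4-OHT, C4 cells went from 123.5 to 13.54 RPKM for Msi2 but from 29.6 to 28.1 RPKM for Msi1, so the Msi1 read total did not mark the deletion. All levels here are RPKM, reads per kilobase of the deposited gene length, scaled to library size. They were rescaled by TMM, a factor that makes most genes equal between libraries. The 9 detected neural stem cell markers summed to 13492 to 18362 RPKM in all libraries, against 112 to 634 RPKM for 11 neuron markers. Glial lists stood higher than the neuron list, with 1139 to 1973 RPKM for 5 astrocyte markers and 1620 to 3251 RPKM for 5 oligodendrocyte lineage markers. Endothelial, mesenchymal and microglia markers each summed to at most 387 RPKM. Such sums depend on the genes listed and do not give shares of cells.

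Most of the set was transcribed in these cells. The mean over the 5 untreated E12.5 libraries reached 1 RPKM for 58 of 70 members, among them all 9 plexins, 8 of 8 ephrins, 17 of 20 semaphorins, 10 of 14 Eph receptors, both neuropilins and all 5 netrin receptors, but 1 of 3 Robos. The median member stood at 11.5 RPKM, below the 19.3 RPKM of the median gene with reads. Epha1, Epha6, Epha8, Robo4, Sema3g, Slit3 and Unc5cl stayed under 1 RPKM in every library.

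Plxnb2, a receptor for class 4 semaphorins, was the most abundant member, with a mean of 182 ± 40.1 RPKM (SD, n = 5 untreated E12.5 lines). Unc50 followed at 140.0 ± 11.7 RPKM. Among the ligands Sema6d, a transmembrane semaphorin, was highest at 116 ± 23.1 RPKM, ahead of Ntn1, the canonical netrin, at 97.9 ± 58.4 RPKM, Sema6a at 90.8 ± 11.8 RPKM and Sema5b at 79.1 ± 16.9 RPKM. The spread between lines was wider than most of these steps, so neighbours in the order did not differ beyond it. Epha5, at 92.8 ± 64.9 RPKM, and Ephb3, at 77.03 ± 49.2 RPKM, were the highest Eph receptors. The Ephb3 value rests on a deposited length of 116 nt. Plxnb1, a further class 4 semaphorin receptor, had 79.6 ± 22.8 RPKM. The rest of the 20 most abundant members were Ntn4 (64.8 RPKM), Nrp2 (63.0), Sema4b (59.7), Robo1 (56.4), Efnb1 (46.7), Plxna1 (46.6), Sema4g (45.0), Plxnd1 (44.9), Sema3a (43.3), Plxnb3 (42.3) and Nrp1 (40.9), all as mean RPKM.

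Members above 1 RPKM in all 13 libraries, 48 genes, had a median ratio of highest to lowest library of 3.08, against 2.38 for 10821 genes above the same level. The extremes, picked after their values were seen, were Sema4c, which ranged only from 18.7 to 27.3 RPKM, and Slit1, a secreted repellent, which ranged from 2.78 to 39.6 RPKM. The heat map of levels by library sets all families side by side.

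**Figure D1:**
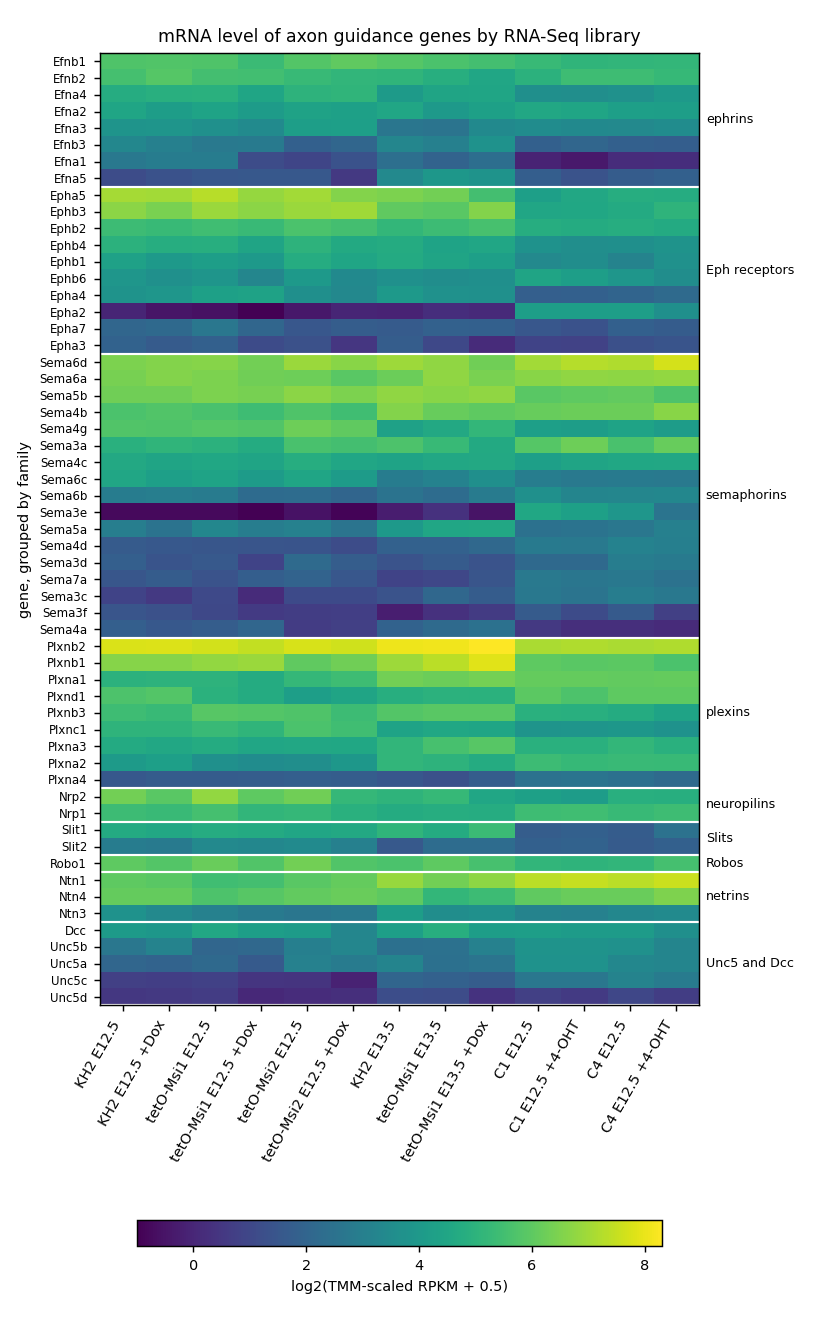
Heat map of log2(TMM-scaled RPKM + 0.5) for the guidance genes with a mean of at least 1 RPKM over the untreated E12.5 libraries (rows, by family) in the 13 RNA-Seq libraries (columns). Sema3e and Epha2 are near the bottom of the scale in every tet library and at 5.48 to 22.96 and 11.9 to 18.2 RPKM in the floxed libraries, while Slit1 and Epha5 have the opposite order.

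To ask which members respond to Msi1 overexpression, Dox-treated tetO-Msi1 cells were set against untreated ones, both stages serving as repeats, using edgeR's quasi-likelihood test with stage as a block and Benjamini-Hochberg adjustment over all genes. Of 60 members tested, 4 receptors fell and 0 rose, where 1.82% of all 11938 genes fell and 1.78% rose. The 4 were Nrp2, the co-receptor for Sema3f, Epha3 and Epha5, both receptors for ephrin-A ligands, and the netrin receptor Dcc. None of the 8 ephrins, 17 semaphorins, 9 plexins, 4 netrins, 2 Slits or 2 Robos tested passed, and the median change of the members was -0.11 on the log2 scale against -0.01 for all genes. The 4 calls need the stage block, since without it 0 members passed, and DESeq2 called 2 of them.

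Nrp2 (chr1:62750779-62831715, plus strand, coding exons, mm9) had 110.1 RPKM without and 63.5 RPKM with Dox in tetO-Msi1 cells at E12.5, and 36.6 and 22.3 RPKM at E13.5. In tetO-Msi2 cells it went from 76.6 to 36.0 RPKM, and in KH2 cells, which have no transgene, from 80.2 to 60.8 RPKM. It was thus lower with Dox in all 4 pairs, and in KH2 the log2 ratio of -0.40 had a 95% counting interval of -0.49 to -0.31 that leaves out 0. The change in tetO-Msi1 cells was -0.75 ± 0.16 (log2 ± SE, adjusted p = 0.000267).

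Epha5 went from 159 to 114 RPKM at E12.5 and from 79.9 to 45.3 RPKM at E13.5 in tetO-Msi1 cells, and from 129 to 95.5 RPKM in tetO-Msi2 cells. In KH2 cells it had 130.5 and 127 RPKM, a log2 ratio whose 95% counting interval of -0.12 to 0.05 spans 0. The fitted change in tetO-Msi1 cells was -0.64 ± 0.16 (edgeR, adjusted p = 0.00321). Epha3, a low-abundance receptor, went from 3.16 to 1.66 RPKM at E12.5 and from 1.51 to 0.607 RPKM at E13.5, a fitted change of -1.14 ± 0.30 (edgeR, adjusted p = 0.00740), and from 1.98 to 0.878 RPKM in tetO-Msi2 cells. It had 3.34 and 2.70 RPKM in KH2 cells, where the counting interval of -0.69 to 0.09 spans 0. Dcc had 23.3 and 17.8 RPKM at E12.5 and 27.9 and 17.8 RPKM at E13.5, a fitted change of -0.52 ± 0.16 (edgeR, adjusted p = 0.0390). It had 16.7 and 9.16 RPKM in tetO-Msi2 cells and 16.4 and 14.8 RPKM in KH2 cells. In the paired plot of these receptors the transgenic pairs all slope down, and the KH2 pairs slope least on the log scale. The 11 neuron markers present in the RNA-Seq data also summed to less with Dox. Without and with Dox their sums were 149 and 112 RPKM in tetO-Msi1 cells at E12.5 and 259.9 and 181 RPKM at E13.5. They were 183 and 153 RPKM in KH2 and 216 and 192 RPKM in tetO-Msi2 cells. Up to 3 of the 11 had no read in an E12.5 tet library. In the test of tetO-Msi1 cells 2 of 8 were called lower. Of the other lists tested there, 1 of 5 astrocyte and 1 of 5 oligodendrocyte lineage markers were lower, and 0 of 9 neural stem cell, 0 of 3 mesenchymal, 0 of 1 endothelial and 0 of 1 microglia markers passed. The part of these markers in the members' values was not tested.

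**Figure D2:**
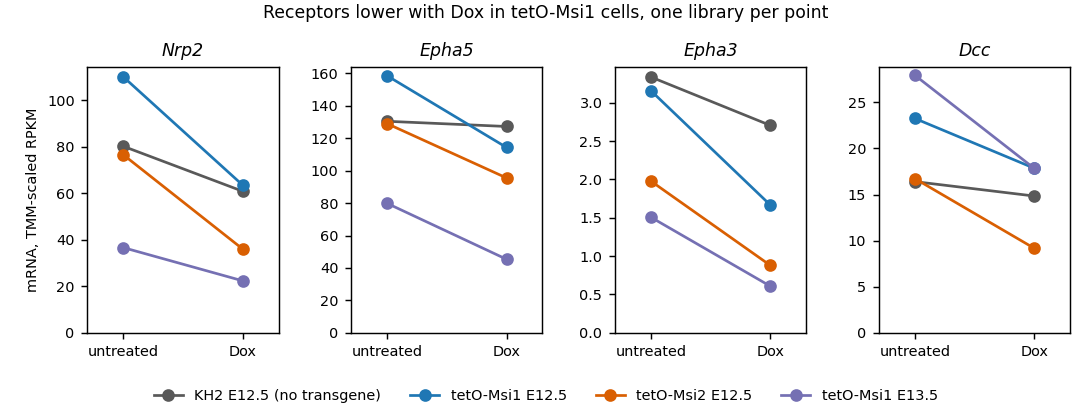
mRNA level (TMM-scaled RPKM, linear axis from 0) of Nrp2, Epha5, Epha3 and Dcc without and with Dox, each point 1 library and each line 1 cell line and stage. Values are lower with Dox in the 3 transgenic pairs of every panel, and Epha5 in KH2 is at 130.5 and 127 RPKM.

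Whether these falls exceed the response of cells with no transgene was tested as an interaction over the 4 Dox pairs. None of 60 members passed by edgeR, where 0% of 12167 genes were called higher and 0% lower. At an unadjusted p under 0.05 the test gave 5 members and 584 genes, and DESeq2 also called 0. For Epha5 the change beyond KH2 was -0.53 ± 0.21, for Nrp2 -0.46 ± 0.20, for Dcc -0.48 ± 0.23 and for Epha3 -0.84 ± 0.39 (log2 ± SE, each with edgeR adjusted p = 0.971). A p above the threshold does not show equal responses.

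With the 3 E12.5 lines as repeats, the change shared by KH2, tetO-Msi1 and tetO-Msi2 cells was called for 1 of 59 members, Nrp2, at -0.75 ± 0.10 (log2, edgeR adjusted p = 0.00828). Of all genes 0.292% were called lower and 0.159% higher. Fitted values were negative for 48 of the 59, including 10 of 10 Eph receptors, 15 of 17 semaphorins and 7 of 8 ephrins, with a median of -0.15 against 0.00 for all genes. These are signs and not calls. In the single E12.5 pairs the median member change was -0.05 in KH2, -0.21 in tetO-Msi1 and -0.19 in tetO-Msi2 cells. Negative values were seen in 36 of 57, 45 of 57 and 34 of 54 members. At E13.5 the tetO-Msi1 pair alone had a median member change of 0.06, with 29 of 55 members positive. Without KH2 the number of members called went from 1 to 7.

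Few members passed in single pairs, for which the limit was 2-fold after 0.5 RPKM was added and intervals are exact binomial ones that cover counting error only. In KH2 cells 0 of 57 did, where 0.659% of genes were higher and 0.511% lower. In tetO-Msi1 cells at E12.5 Epha10 was higher on 1 and 2 reads, and Efna1, an ephrin-A ligand, was lower on 61 and 6 reads, where 1.49% of genes were higher and 1.5% lower. The log2 ratio for Efna1 was -1.98 (95% counting interval -3.49 to -0.78), and it was 0.45 at E13.5 (0.01 to 0.89), so the stages had opposite directions. In tetO-Msi2 cells Nrp2 and Efna5 were lower and 0 members higher, with a background of 0.822% lower and 1.03% higher, and Efna5 rested on 15 and 7 reads. With RPKM as deposited 0 members passed in either of these transgenic E12.5 pairs, so Efna1, Epha10, Nrp2 and Efna5 all dropped below a limit, and with 2 RPKM added 1 passed in each. In tetO-Msi1 cells at E13.5 0 of 55 members passed, where 0.87% of genes were higher and 1.05% lower.

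Musashi proteins bind RNA sequences with a UAG core, often in the 3′ untranslated region (3′ UTR), so each gene's longest 3′ UTR in GENCODE vM1 (mm9) was searched on the sense strand. The letters TAG, and ATAGT or GTAGT, which contain TAG, were counted. Members had 10.4 TAG per kb and 1.00 of the longer motifs per kb, against 12.04 and 1.38 per kb over 18267 genes, and 58.6% of members held at least 1 longer motif, against 57.6% of all genes. The members had longer 3′ UTRs, with a median of 1548 against 888 nt. Of the receptors lower with Dox, Nrp2 held 0 longer motifs in 3058 nt, Dcc 0 in 252 nt, Epha3 held 3 in 2593 nt and Epha5 held 5 in 1844 nt. The 3 sites of Epha3 and 4 of the 5 sites of Epha5, with 10 bases on both sides, are given on the minus strand, 5′ to 3′, with the motif in capitals, to show how they vary around the shared letters. The Epha5 sites lie in a transcript whose end is downstream of the counted coding exons. A match is a run of letters and not a measured binding site.
Epha3, chr16:63545415-63545439: gataaagtttGTAGTtgttttaaat
Epha3, chr16:63544504-63544528: ttatggggatGTAGTcttgctgttc
Epha3, chr16:63544377-63544401: tttcttgctgATAGTatcattccat
Epha5, chr5:84496343-84496367: tcatttttacGTAGTtgttggggca
Epha5, chr5:84495506-84495530: tacccaggtaATAGTttaaataaag
Epha5, chr5:84495021-84495045: tgtaataccaATAGTgagaggttct
Epha5, chr5:84494906-84494930: tataaatatcATAGTctcagcactg

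The 4-OHT comparison asks what is shared by C1 and C4, and separately what C4, the line with CreER, does. Over both lines, 2 semaphorins rose and 1 fell of 59 members tested, where 3.14% of 11626 genes rose and 2.36% fell (edgeR with line as a block). No ephrin, Eph receptor, plexin, neuropilin, netrin or netrin receptor passed. Sema3a, a secreted repellent that signals through Nrp1, went from 57.6 to 75.4 RPKM in C1 and from 48.7 to 69.4 RPKM in C4, a change of 0.45 ± 0.07 (log2, edgeR adjusted p = 0.00976). Sema6d went from 128.4 to 152 RPKM in C1 and from 145 to 205 RPKM in C4, at 0.37 ± 0.07 (edgeR adjusted p = 0.0248), with 0.25 in C1 alone. Sema3f, a ligand of Nrp2, went from 2.69 to 1.66 RPKM and from 2.63 to 1.19 RPKM, at -0.92 ± 0.21 (edgeR adjusted p = 0.0425), and DESeq2 did not call it. All these changes had the same direction with and without CreER. Beside them the neuron markers summed to 634 and 551 RPKM in C1 and 592 and 406 RPKM in C4 without and with 4-OHT, with 2 of 9 called lower, and the mesenchymal markers to 387 and 172 RPKM and to 253 and 136 RPKM, with 1 of 4 called lower. Among astrocyte markers 1 of 5 was lower and among oligodendrocyte lineage markers 1 of 5 higher, and the part of any of these was not tested.

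In single pairs 0 of 58 members passed 2-fold in C1, where 0.0832% of genes were higher and 0.266% lower. In C4 Sema3e, the ligand of Plxnd1, was lower and 0 members were higher, where 1.13% of genes were lower and 0.921% higher. Sema3e went from 1080 to 518 reads, 14.4 to 5.48 RPKM, in C4, a log2 ratio of -1.39 (95% counting interval -1.55 to -1.24). In C1 it went from 2166 to 1581 reads, 22.96 to 19.0 RPKM, a ratio of -0.28 (-0.37 to -0.18). The intervals do not overlap, but they cover counting error only, and with 1 pair per line the difference was not tested against the spread between cultures.

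**Figure D3:**
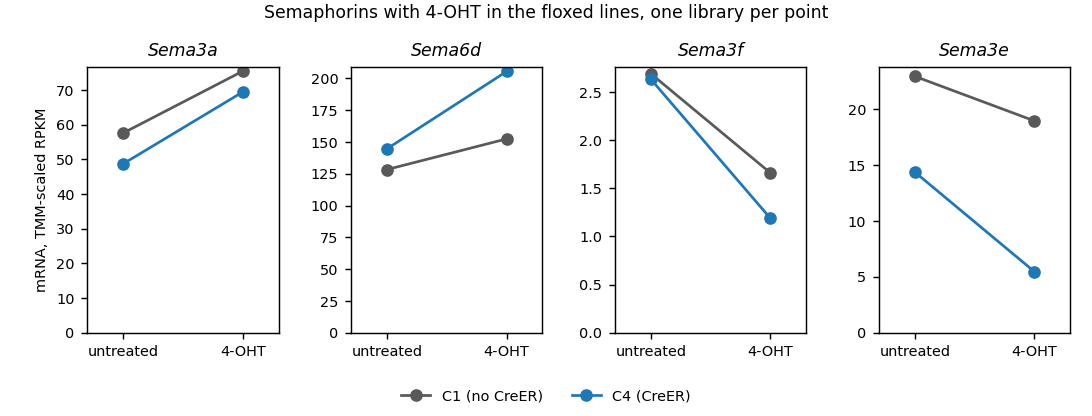
mRNA level (TMM-scaled RPKM, linear axis from 0) of Sema3a, Sema6d, Sema3f and Sema3e without and with 4-OHT in C1 (no CreER) and C4 (CreER), 1 library per point. Sema3a and Sema6d rise in both lines, Sema3f falls in both, and Sema3e falls from 14.4 to 5.48 RPKM in C4 and from 22.96 to 19.0 RPKM in C1.

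Untreated KH2 and tetO-Msi1 cells at E13.5 and E12.5 were compared with line as a block, and 15 of 60 members were called higher and 16 lower by edgeR, where 25.6% of 11893 genes were higher and 25.2% lower, so the members' shares were near those of all genes. Each stage was its own set of libraries, so stage and library set cannot be told apart. The untreated E12.5 libraries used here also enter the comparison of floxed with tet lines. By family, 5 of 9 plexins were higher and 1 lower, 2 of 5 netrin receptors higher and 0 lower, 2 of 4 netrins higher and 1 lower, and 5 of 17 semaphorins higher and 4 lower. Of 8 ephrins 1 was higher and 3 lower, of 10 Eph receptors 0 and 4, of 2 neuropilins 0 and 2, of 2 Slits 0 and 1, and of 2 Robos 0 and 0. Differences between families were not tested, and DESeq2 called 11 members higher and 12 lower. Neuron markers summed to 149 to 183 RPKM at E12.5 and 259.9 to 272.5 RPKM at E13.5, with 2 of 8 called higher. Neural stem cell markers had 2 of 9 higher and 4 lower, astrocyte markers 2 of 5 higher and 1 lower, oligodendrocyte lineage markers 1 of 5 each way, and 1 of 1 endothelial and 1 of 2 mesenchymal markers tested were lower. The part of these markers was not tested.

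Efna5, an ephrin-A ligand and cortical and retinal map cue, had the widest rise, from 1.74 to 9.93 RPKM in KH2 and from 2.35 to 14.6 RPKM in tetO-Msi1 cells, at 2.57 ± 0.32 (log2, edgeR adjusted p = 0.000115). The plexin-A receptors Plxna1 and Plxna2 rose together. Plxna1 went from 30.9 to 80.3 RPKM in KH2 and from 31.5 to 74.1 RPKM in tetO-Msi1 cells, at 1.29 ± 0.11 (edgeR adjusted p = 6.24e-06), and Plxna2 from 16.5 to 34.1 and from 12.3 to 31.8 RPKM, at 1.198 ± 0.12. The netrin receptor Unc5c rose by 1.43 ± 0.26, the semaphorin Sema5a by 1.15 ± 0.13 and Sema3c by 0.99 ± 0.32, the last from 1.33 to 2.08 and from 1.57 to 3.84 RPKM and not called by DESeq2. Without tetO-Msi1 the Sema3c difference was 0.61.

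Among the members lower at E13.5, Nrp2 went from 80.2 to 32.8 RPKM in KH2 and from 110.1 to 36.6 RPKM in tetO-Msi1 cells, at -1.46 ± 0.12 (log2, edgeR adjusted p = 6.41e-06). Sema6c and Sema4g are transmembrane semaphorins. Sema6c went from 21.9 to 6.96 RPKM in KH2 and from 20.5 to 8.16 RPKM in tetO-Msi1 cells, and Sema4g fell by 1.36 on the log2 scale. Slit2, a Robo ligand, went from 6.91 to 2.55 and from 9.84 to 4.40 RPKM, at -1.31 ± 0.16. Ntn5 and Sema3f had the lowest fitted values, -2.41 ± 0.45 and -1.71 ± 0.44, on 11 to 42 and 16 to 71 reads per library, and Sema3f was at -1.06 without KH2.

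The floxed lines differed from the tet lines in 41 of 62 members tested, 19 higher and 22 lower, where 33% of 12211 genes were higher and 33.3% lower (edgeR, 2 untreated floxed against 3 untreated tet libraries at E12.5). The members' shares were thus near those of all genes. The lines differ in origin, alleles and library set at once, which cannot be told apart. Eph receptors were lower in 6 of 10 and higher in 1, ephrins lower in 3 of 8, and semaphorins higher in 8 of 18 and lower in 5. Of the 5 netrin receptors 3 were higher and 0 lower. Differences between families were not tested.

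The widest differences among members were in genes with few reads in the tet lines. Sema3e (chr5:14025910-14252790, plus strand, coding exons, mm9) had 2 to 4 reads in the untreated E12.5 tet libraries and 2166 and 1080 reads in C1 and C4, at 22.96 and 14.4 RPKM. The fitted difference was 7.30 ± 0.36 (log2, edgeR adjusted p = 2.41e-05), a value that depends on how so few reads are handled. Epha2, an Eph receptor better known from epithelia, had 8 to 14 reads in the tet libraries and 2352 and 1849 reads in C1 and C4, 18.2 and 18.01 RPKM, at 5.97 ± 0.29 (edgeR adjusted p = 2.41e-05). The other members with the largest positive differences were Unc5c (2.68 ± 0.26), Sema3c (2.12 ± 0.21), Robo3 (1.89 ± 0.46) and Slit3 (1.84 ± 0.49), with at most 1.41 RPKM of Robo3 and 0.589 RPKM of Slit3 in any library. Ntn1 had 43.7 to 63.4 RPKM in the tet lines and 162 and 161 RPKM in the floxed lines, at 1.53 ± 0.16.

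Slit1 had 22.4 to 26.3 RPKM in the untreated tet lines and 2.84 and 2.78 RPKM in C1 and C4, at -3.14 ± 0.13 (log2, edgeR adjusted p = 2.1e-05), and its partner receptor Robo1 went the same way, from 62.6 to 79.5 RPKM down to 34.2 and 34.7 RPKM, at -1.05 ± 0.13. Epha5 had 129 to 159 RPKM against 18.8 and 27.1 RPKM, at -2.61 ± 0.20, Epha4 11.9 to 19.1 against 2.98 and 3.45 RPKM, at -2.21 ± 0.24, and Ephb3 101 to 118 against 22.0 and 25.4 RPKM, at -2.26 ± 0.19. Nrp2 had 76.6 to 110.1 against 19.0 and 29.0 RPKM. Efna1 at -3.16 ± 0.71 and Ntn5 at -2.52 ± 0.44 rested on 8 to 61 and 14 to 42 reads per library, and Efna1 was not called without C1, nor Slit3 without tetO-Msi1.

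Other cell types' markers moved with the same comparison. The 11 neuron markers summed to 149 to 216 RPKM in the untreated tet libraries and 592 to 634 RPKM in the floxed ones. Of 9 tested, 6 were called higher and 1 lower. The 7 mesenchymal markers summed to 11.1 to 33.3 against 253 to 387 RPKM, but only 3 were tested and 1 was called higher. The 6 endothelial markers summed to 2.45 to 3.001 against 10.3 to 17.8 RPKM and the 4 microglia markers to 2.34 to 5.34 against 10.6 to 11.4 RPKM. In the floxed libraries 1 or 2 of the former and 2 of the latter were listed at 0. Of those tested, 2 of 2 endothelial and 1 of 1 microglia markers were called higher. The 5 astrocyte markers had 1374 to 1886 against 1672 to 1973 RPKM, sums that overlap, but 3 of 5 were called higher and 1 lower, with a median log2 difference of 1.99. Of the 9 neural stem cell markers 1 was called higher and 4 lower, with a median of -0.39. The 5 oligodendrocyte lineage markers had 1670.2 to 2176 against 1859 to 2308 RPKM, with 1 called higher and 1 lower. Their part in the members' differences was not tested, and fewer cells of a type cannot be told apart from less RNA per cell.

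**Figure D4:**
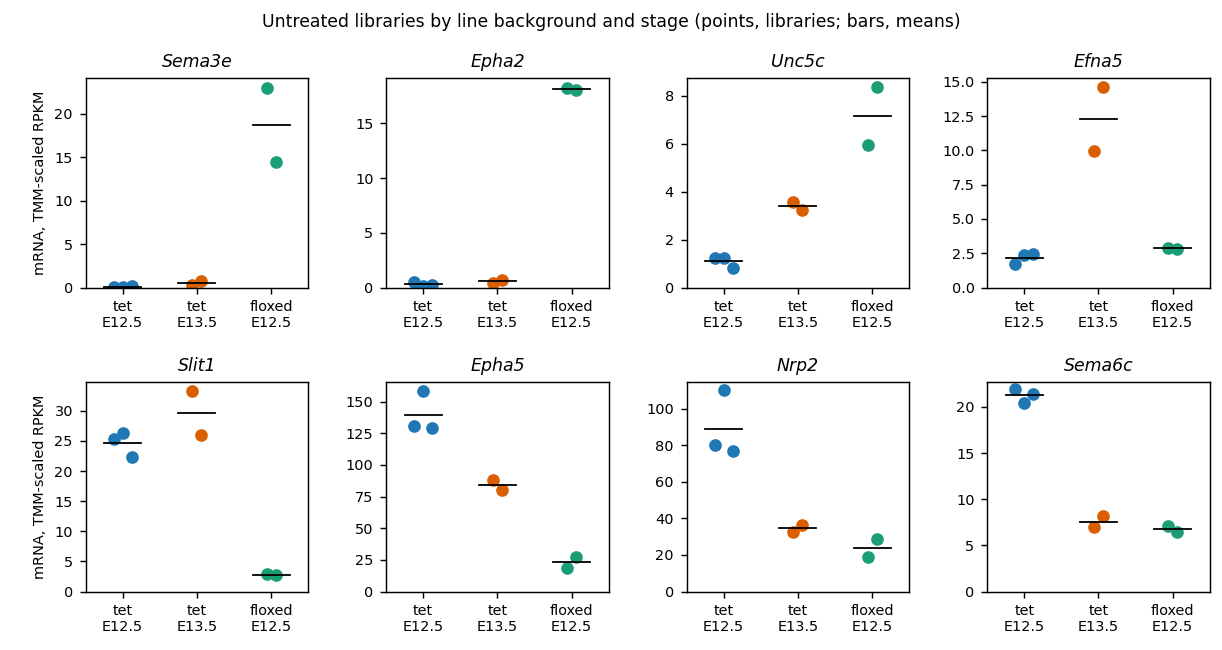
mRNA level (TMM-scaled RPKM, linear axis from 0) of 8 guidance genes in untreated libraries of the tet lines at E12.5 and E13.5 and of the floxed lines at E12.5. Points are libraries and bars are means. Sema3e and Epha2 are near 0 outside the floxed lines, Efna5 is highest at E13.5, and Epha5, Nrp2 and Sema6c are highest in tet lines at E12.5.

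Of 54 genes that carry guidance signals inside the cell or modify them, such as collapsin response mediators and kinases, 1 of 50 tested was lower with Dox in tetO-Msi1 cells. This was Flrt3, an Unc5-binding membrane protein, at -1.06 ± 0.17 (log2, edgeR adjusted p = 7.05e-07). With 4-OHT 1 of 51 was higher, Vav3 at 0.34 ± 0.07, and 3 were lower, Vasp, Rnd2 and Rgma, at -0.39, -0.33 and -0.31. Between stages 12 of 51 were higher and 18 lower, led by Dpysl2, a semaphorin signalling mediator, at 1.57 ± 0.11 and by the kinase Pak3 at -1.74 ± 0.18. Between floxed and tet lines 13 of 51 were higher and 19 lower, led by Ngef, an exchange factor that acts downstream of EphA receptors, at 4.47 ± 0.15 and by Rgma, a neogenin ligand, at -2.62 ± 0.20. Of all genes 1.78% were higher and 1.82% lower with Dox in tetO-Msi1 cells, and 3.14% and 2.36% with 4-OHT. The shares were 25.6% and 25.2% between stages and 33% and 33.3% between floxed and tet lines. Differences of the signalling genes from these shares were not tested.

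Translational efficiency (TE) is the footprint level over the mRNA level of a gene. It could be ordered for 17 members with more than 20 footprints and reads in every untreated library, given as log2 TE relative to the median of 4070 such genes. Only 6 of the 17 were counted over the same exons in both assays, which limits the order between genes. Even for these the deposited mRNA length was shorter than the footprint exons, as for Ntn1 at 1575 against 1815 nt. Epha4 had the highest mean log2 TE, 1.42 ± 0.43 (SD, n = 4 untreated lines), ahead of Sema4b at 1.02 ± 0.14, Dcc at 0.82 ± 0.48, Plxnb3 at 0.41 ± 0.41 and Epha5 at 0.35 ± 0.33. The lowest was the secreted netrin Ntn4 at -1.41 ± 0.07, at percentile 3.59 of genes, followed by Unc50 at -0.74 ± 0.10, Plxnc1 at -0.69 ± 0.55, Plxnb2 at -0.53 ± 0.53 and Plxna1 at -0.35 ± 0.80. The related Ntn1 had -0.13 ± 0.53, and the ranges over the 4 lines did not overlap. Ntn1 was counted over the same exons in both assays but Ntn4 was not, so their TE values are not on one scale. Of the other genes named as highest or lowest, Sema4b, Dcc, Epha5, Unc50, Plxnc1 and Plxnb2 were also counted over different exons. The part of exon use in this order was not tested.

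TE also differed between line backgrounds. In an interaction test over both assays, TE was lower in the floxed than in the tet lines for 9 of 28 members and higher for 0, where 7.78% of 7156 genes were lower and 6.3% higher (edgeR). The median log2 difference was -0.73 for the members and -0.03 for all genes, and 23 of 28 were negative. Plexins gave 4 of the 9, and the others were 2 semaphorins, 2 Eph receptors and Ntn1. Among them Sema5b, Plxna3, Plxnb1, Ephb2 and Plxnb2 were counted over different exons in RNA-Seq and Ribo-Seq. The part of exon use in their TE differences was not tested. With the treated libraries added 13 of 21 members were lower and 0 higher, while without tetO-Msi1 3 and without KH2 4 were. The fit with treated libraries took treated and untreated libraries of a line as separate samples, which adds no lines. Shares of all genes are not given here for these alternatives. Floxed and tet libraries were separate sets, so line and library set cannot be told apart.

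Sema5b, a transmembrane semaphorin, had a log2 TE of 1.03 and 0.60 in untreated KH2 and tetO-Msi1 cells and -1.54 and -0.42 in C1 and C4, on 34 to 96 footprints, a difference of -1.77 ± 0.38 (log2, edgeR adjusted p = 0.00162). Plxna3 had 0.89 and 1.21 against -0.71 and -0.39, at -1.59 ± 0.29 (edgeR adjusted p = 0.000392). Plxna1 had 0.24 and 0.41 against -1.18 and -0.88, on 99 to 789 footprints, at -1.32 ± 0.25 (edgeR adjusted p = 0.000435). In both plexins the groups did not overlap, and the mRNA of Plxna1 was higher in the floxed lines, at 1.04 ± 0.09 on the log2 scale. Ntn1 had 0.19 and 0.43 against -0.68 and -0.47, at -0.85 ± 0.26, and its mRNA was higher in the floxed lines. Ephb4, at -1.77 ± 0.43, and Sema4g, at -1.62 ± 0.46, were lower in both mRNA and TE, on 7 to 79 and 17 to 99 footprints, too few for the limit of more than 20 reads. The Sema4g difference was -0.48 and not called without C1 and -2.72 without C4, and that of Sema5b was -1.18 without C1. Plxnb1 at -1.31 ± 0.37, Ephb2 at -1.28 ± 0.38 and Plxnb2 at -0.82 ± 0.26 completed the calls. Plxnb1, on 8 to 37 footprints, and Ephb2, with 16 in untreated KH2 cells, also had too few for the limit of more than 20 reads. Epha5, at 0.53 ± 0.31, and Ntn4, at -0.06 ± 0.31, were among the members that did not pass.

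**Figure D5:**
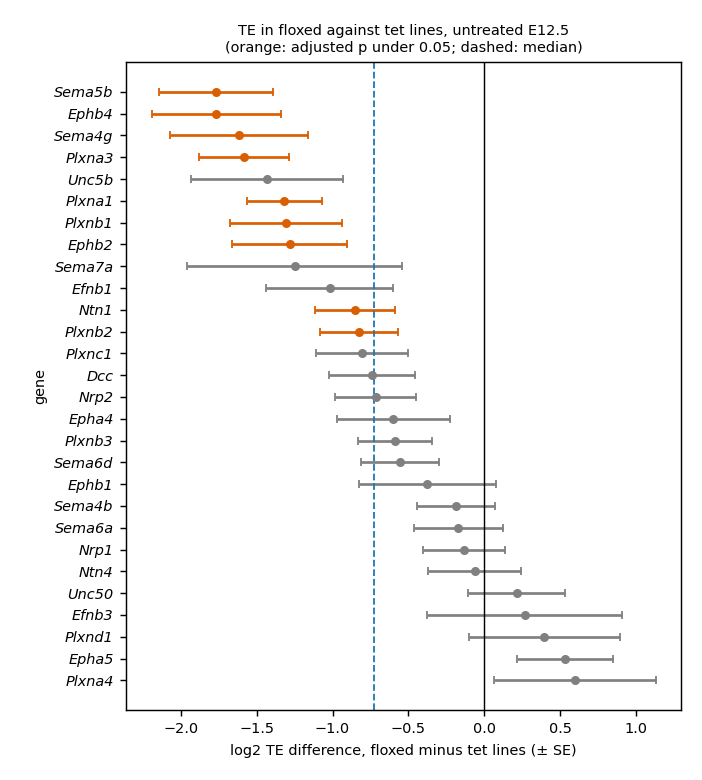
log2 TE difference between untreated floxed and tet lines (horizontal axis, ± SE from edgeR) for the 28 members with more than 5 reads in all 8 libraries. Orange points are the 9 with an adjusted p under 0.05, all negative, from -0.82 (Plxnb2) to -1.77 (Sema5b), and the dashed line is the members' median of -0.73.

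The signalling genes had 5 of 37 lower and 2 higher in the same TE comparison, where 7.78% of genes were lower and 6.3% higher, with a median of -0.19. The lowest were Rnd2 at -1.21 ± 0.35, the cell-surface receptor Dscam at -1.21 ± 0.32 and the exchange factor Trio at -0.96 ± 0.26, and higher were the cytosolic Cdc42 at 1.12 ± 0.25 and Cfl1 at 0.76 ± 0.25 (log2 ± SE).

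TE showed no member called under either treatment. Each test fitted a TE change shared by a line with and a line without the transgene or CreER. An effect of Musashi cannot be set apart by such a fit, and TE change beyond KH2 or C1 was not tested. Under Dox in KH2 and tetO-Msi1 cells 0 of 26 members passed by edgeR, where 0% of 6442 genes were called higher and 0% lower, and at an unadjusted p under 0.05 there were 0 members and 209 genes. The median member change was 0.00, with 13 of 26 positive. For Nrp2 the TE change was 0.12 (95% counting interval -0.25 to 0.48) in KH2 and 0.22 (-0.12 to 0.56) in tetO-Msi1 cells, on 132 and 124 and on 433 and 90 footprints. Under 4-OHT 0 of 30 members passed by edgeR, with 0 at an unadjusted p under 0.05 against 624 genes, and 0.327% of 8255 genes were called higher and 0.109% lower. Member values were negative for 25 of 30, with a median of -0.20 against -0.01 for all genes. No second tool was run for TE.

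By the 3-fold limit on TE in single pairs, with an mRNA change under 1.5-fold and TE centred on its median, Unc5b was lower in KH2 cells with Dox, where 0.683% of genes were lower and 0.441% higher. Its log2 TE change of -1.93 (95% counting interval -3.34 to -0.53) came from 14 and 6 footprints. In tetO-Msi1 cells with Dox Unc5c was higher, at 1.59 (0.11 to 3.06) on 14 and 9 footprints, where 0.837% of genes were higher and 0.284% lower. With 4-OHT 0 of 39 members passed in C1, where 1.81% of genes were higher and 0.448% lower, and 0 of 31 in C4, where 1.11% were higher and 0.969% lower. Both calls were lost when more than 20 reads were asked for.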

How the data were processed

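The authors deposited, per library and gene, an RNA-Seq read count, a length and an RPKM, and for Ribo-Seq a count and an RPKM over listed coding exons. The submitters' processing notes name Bowtie, TopHat and mm9, with versions not given in the sources used here. The deposited counts were tested with edgeR 4.0.16 (genes reaching 1 CPM in 2 or more libraries, TMM, quasi-likelihood test, Benjamini-Hochberg adjustment, threshold 0.05). TE was tested as an interaction of assay and condition over genes with more than 5 reads in every library. DESeq2 1.42.0 was an alternative for mRNA. SE is the size of the log2 change over the square root of the F statistic. Deposited RPKM values were used for TE pairs, and levels were recomputed from counts with TMM factors. The technical pair differed slightly more than sampling noise (chi-square over degrees of freedom 1.67, 13207 genes) and was summed. Lines and stages served as repeats, so p-values rest on the spread between these samples. Few residual degrees of freedom were left in each test, so the p-values also lean on a spread that edgeR pools over all genes. Steps were tested on simulated data.

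The members and gene lists were chosen with earlier results of these data known. Named genes were the 20 most abundant members, up to 6 per direction and test by size of change (3 for signalling genes), members past the pair limits, and the 5 highest and 5 lowest in TE. A few genes outside this rule are named for their values. The alternatives were RLE scaling, no filter, DESeq2, no stage block, libraries left out, other pseudocounts, limits and scaling. Leaving out lines and adding treated libraries in the TE tests were chosen after seeing the data. Promoter and protein sequences were not used here.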

Additional observations from a re-analysis of the deposited data

Results flagged for a closer look

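Robo2, a Slit receptor with no mRNA value here, had footprints in every Ribo-Seq library, well above the 3 counts that a count of 0 allows. Footprint counts were 145 and 102 in KH2 cells without and with Dox, 309 and 72 in tetO-Msi1 cells, 557 and 158 in C1 and 216 and 141 in C4 without and with 4-OHT. It was picked out because it is a signal outside the comparisons of mRNA and TE.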

How the results depend on the processing

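Of 84 alternatives for counts of members, 58 stayed within 1.5 times the count given. These include many where a count of 0 stayed at 0, so the 58 do not measure how well calls held. No named member reversed its direction in 611 alternatives, of which 54 lost the threshold and 28 moved. The cause of the shifts was not tested. With Dox in both stages of tetO-Msi1 cells the 4 members called became 2 by DESeq2 and 0 with no stage block. With no filter on low counts the 1 member called over 3 E12.5 lines became 7 and the 3 called with 4-OHT became 8. Leaving out 1 line gave 1 to 7 members for Dox over 3 lines (7 without KH2), 31 to 48 for floxed against tet lines, and 3 to 12 for their TE (3 without tetO-Msi1, 4 without KH2), where asking for more than 20 reads gave 5. Leaving 1 pair gave values with no test. In mRNA pairs a 1.5-fold limit gave 9 members in tetO-Msi1 cells at E12.5, 5 in tetO-Msi2, 11 in tetO-Msi1 at E13.5 and 3 in C4. With 2 added in place of 0.5, tetO-Msi1 and tetO-Msi2 cells had 1 member each at E12.5, with RPKM as deposited 0 each, and with 0.1 added the E13.5 pair had 2 and C4 2. In TE pairs, asking for more than 20 reads left 0 in KH2 and 0 in tetO-Msi1 cells, a 2-fold limit gave 3 in tetO-Msi1, 2 in C1 and 3 in C4, and without centring C1 had 16 and C4 1, where the centring removed -1.46 and -0.23. Footprints limit the TE tests to 26 to 30 of the 70 members. Treated and untreated libraries were paired by line or stage through the block in each treatment test.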

Other observations

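Sema4f, a semaphorin with at most 1.302 RPKM of mRNA in every library, had 1002 footprints in untreated tetO-Msi1 cells and 0 to 5 in the other 7 Ribo-Seq libraries. Epha10 and Unc5cl were at or near 0 reads throughout. The 2.68 RPKM of Epha10 in tetO-Msi1 cells with Dox stood for 2 reads over a deposited length of 91 nt. Sema6d mRNA was higher with Dox in KH2 cells, at a log2 ratio of 0.12 (95% counting interval 0.02 to 0.22), and lower in the E12.5 tetO-Msi1 pair (-0.43 to -0.18), the tetO-Msi2 pair (-0.36 to -0.17) and the E13.5 tetO-Msi1 pair (-0.52 to -0.41), and the test of the change beyond KH2 gave -0.46 ± 0.19 (log2, edgeR adjusted p = 0.971). Both neuropilins had lower mRNA at E13.5, and between floxed and tet lines Nrp2 was lower at -1.90 ± 0.24 while Nrp1 had 38.1 and 42.3 RPKM in the floxed lines against 36.0 to 46.9 RPKM in the tet lines.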
